A study of Mus musculus with 6 samples.

Results

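Secretoglobins are small secreted proteins of glandular and mucosal epithelia, and 6 of their genes were followed here in sorted mammary tumor cells. The genes were Scgb1b27, Scgb2b27, Scgb1b2, Scgb2b2, Scgb1a1 and Scgb2a2, taken from 69 genes with a secretoglobin symbol and 47643 gene IDs in the count files. They were chosen by the spread of 1 of them, Scgb1b27, which was among the most variable of the abundant genes in these same tumors, and the other 5 were listed as its relatives. The spread of Scgb1b27 is therefore given as a description.

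Tumor cells came from 6 female MMTV-PyMT mice (FVB/N), where the mammary tumor virus promoter drives the polyoma middle T oncogene in mammary epithelium. All 6 mice had the same treatment, the antibody B20-4.1.1 to mouse VEGF-A, given at 5 mg/kg in 2 injections per week from the age of 7 weeks, and tumors were taken after 6 weeks. CD45-EPCAM+ cells were sorted by flow cytometry, and 3' RNA-seq libraries were made from 1 tumor each. No untreated tumor is among these libraries, and the labels give no hypoxia class to any tumor, so the comparisons below run across tumors or along a hypoxia score.

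Secretoglobin proteins form dimers with an inner pocket that holds small hydrophobic molecules. In mice, a large gene cluster encodes the subunits of androgen-binding protein, a dimer of an alpha subunit (Scgb1b genes) and a beta-gamma subunit (Scgb2b genes) best known from saliva and tears. Scgb1b27 and Scgb2b27 encode an alpha and a beta-gamma subunit of salivary androgen-binding protein. Scgb1b2 and Scgb2b2 are a second such pair in the same cluster. Scgb1a1 encodes the club cell secretory protein of the airways, and Scgb2a2 carries the name of the human gene for mammaglobin A, a breast epithelial marker.

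Libraries held 2509482 to 5893246 counts on genes, so that 3 counts, taken as the floor of detection, came to 0.509 to 1.20 CPM, counts scaled to the library total. Luminal epithelial genes were high in every tumor. Cdh1, the epithelial cadherin, lay between 1176 and 1798 CPM, and Epcam, the gate gene, between 611 and 972 CPM. The 5 endothelial markers summed to at most 4.36 CPM and the 13 immune markers to between 105 and 307 CPM, and were highest in tumor 3, where Lyz2, lysozyme of myeloid cells, was at 148 CPM and Cd68, a macrophage gene, at 29.1 CPM. S100a8, a calcium-binding protein of neutrophils, had the highest mean of this list. In tumor 3 the erythroid markers together reached 864 CPM, while no other tumor went over 69.4 CPM. The library of tumor 1 held the highest level of Mfge8, a milk fat globule protein, at 14609 CPM against 3561 to 6128 CPM elsewhere. The slopes of Scgb1b27 and Scgb2b27 on the hypoxia score, and the correlation between these genes, are given with and without tumor 1 or tumor 3. Correlations of genes other than secretoglobins, and of the marker lists, are given over all tumors only. How far they rest on tumor 1 or tumor 3 was not tested.

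Both genes of the expressed pair lie on chromosome 7 of GRCm38, head to head. Scgb1b27 (ENSMUSG00000066583) is on the plus strand at chr7:34021483-34022881. Scgb2b27 (ENSMUSG00000066584) is on the minus strand at chr7:34011921-34013942. Their annotated starts are separated by 7540 bases, and no annotated gene lies wholly within that stretch. Scgb1b2 (ENSMUSG00000062556) is on the minus strand at chr7:31290519-31291821, and Scgb2b2 (ENSMUSG00000036521) on the plus strand at chr7:31290508-31304977. The span of Scgb2b2 covers Scgb1b2 on the opposite strand, so reads of the overlapping exons could only be assigned with strand. Scgb1a1 (ENSMUSG00000024653) and Scgb2a2 (ENSMUSG00000096872) are outside the cluster, at chr19:9083636-9087958 on the minus strand and chr19:9847562-9852808 on the plus strand.

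Promoter windows are shown because those of the expressed pair, Scgb1b27 and Scgb2b27, resemble those of Scgb1b2 and Scgb2b2, which stayed under the floor. The sequences are the RefSeq promoter windows of GRCm38.p6, which run from 250 bases before to 50 bases after a RefSeq start, ended before the annotated start of the first protein coding transcript of Scgb1b27, Scgb2b27 and Scgb1b2 and of the shorter one of Scgb2b2. The window of Scgb2b2 thus lies inside the span of that gene, in an intron of its longer transcript, and the end of the Scgb2b27 window, with the marked letters, lies inside a retained-intron transcript of the gene. Capitals mark the letters TATAAA of a TATA box or their reverse complement, TTTATA.
Scgb1b27, chr7:34021231-34021482, plus strand: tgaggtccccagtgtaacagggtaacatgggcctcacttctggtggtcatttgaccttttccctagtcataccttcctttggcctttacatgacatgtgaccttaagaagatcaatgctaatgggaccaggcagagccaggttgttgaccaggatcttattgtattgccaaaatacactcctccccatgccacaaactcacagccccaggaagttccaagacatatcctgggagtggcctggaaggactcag
Scgb2b27, chr7:34013893-34014192, minus strand: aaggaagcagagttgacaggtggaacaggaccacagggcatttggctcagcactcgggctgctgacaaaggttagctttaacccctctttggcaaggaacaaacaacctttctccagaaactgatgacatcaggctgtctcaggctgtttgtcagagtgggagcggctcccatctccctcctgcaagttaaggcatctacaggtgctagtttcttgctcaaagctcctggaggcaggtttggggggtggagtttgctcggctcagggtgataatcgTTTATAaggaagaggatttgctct
Scgb1b2, chr7:31291822-31292066, minus strand: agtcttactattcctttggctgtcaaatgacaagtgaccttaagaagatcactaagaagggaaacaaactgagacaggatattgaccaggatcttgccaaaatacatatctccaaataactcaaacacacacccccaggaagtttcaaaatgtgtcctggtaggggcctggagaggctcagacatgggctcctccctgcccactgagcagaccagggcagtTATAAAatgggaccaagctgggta
Scgb2b2, chr7:31302519-31302760, plus strand: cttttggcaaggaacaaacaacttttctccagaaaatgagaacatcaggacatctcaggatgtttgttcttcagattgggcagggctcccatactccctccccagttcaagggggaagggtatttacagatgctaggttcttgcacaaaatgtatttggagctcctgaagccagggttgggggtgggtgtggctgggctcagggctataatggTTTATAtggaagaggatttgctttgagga

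The promoter windows of Scgb1b27 and Scgb1b2 were identical at 77.2% of 237 aligned bases, and those of Scgb2b27 and Scgb2b2 at 77.1% of 236. The windows of Scgb1b27 and Scgb2b27, the 2 members over 3 counts in every tumor, matched at 56.2% of 194 bases. TATAAA was found on either strand in 13.6% of the 32851 promoters of the same length and in 22 of 29 promoters of the cluster. Scgb1b27 held it 42 bases after the RefSeq start, within the annotated transcript and so outside the printed stretch. Scgb2b27 held its reverse complement 26 bases after the RefSeq start, but before the start of its first protein coding transcript at chr7:34013876. In Scgb1b2 the letters lay 29 bases before the RefSeq start, and in Scgb2b2 the reverse complement lay 37 bases before it. CCAAT was in 37.4% of all promoters, in 7 of 29 of the cluster and in neither window of the expressed pair. The forkhead letters TGTTTAC, the STAT5 letters TTCNNNGAA, the CEBP letters TTGCNNAAT, the hypoxia response core ACGTG and the ETS letters CCGGAAGT were in 0 of 29 cluster promoters, and the GATA letters AGATAA were in 1 of 29. These matches describe letters and say nothing of binding.

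Of the 6 genes, Scgb2b27 and Scgb1b27 were over 3 counts in every tumor, and the other 4 were at or under 3 counts in every tumor. Scgb2b27, the beta-gamma subunit gene, was the highest secretoglobin. It had 5794, 2441, 5988, 2086, 1013 and 9201 counts in tumors 1 to 6, or 983, 973, 1452, 444, 202 and 1796 CPM. Its mean was 975 CPM ± 597 (SD, n = 6), which placed it at rank 78 of 21717 genes with a count. Tumor 6 was highest and tumor 5 lowest, with an 8.88-fold range. Exact Poisson intervals (95%, counting error only) overlapped between neighbours in this order only for tumors 1 and 2.

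Scgb1b27, the alpha subunit gene, had 430, 498, 2161, 567, 139 and 5099 counts in tumors 1 to 6, or 73.0, 198, 524, 121, 27.8 and 995 CPM. The mean was 323 CPM ± 374 (SD, n = 6), at rank 390. The order from high to low was tumors 6, 3, 2, 4, 1 and 5, and no neighbouring intervals overlapped. The highest tumor stood 35.9-fold over the lowest, a wider range than that of Scgb2b27. Over the 3766 genes averaging 50 CPM or more, the spread of Scgb1b27 between tumors, as edgeR's dispersion over the trend at its level, was 5.76 and ranked 6. Vim, an intermediate filament gene, stood just above it at 6.15, and Ctnnd1, which encodes p120 catenin, just below it at 5.60. Scgb2b27 ranked 82 with 2.51. These ranks restate the choice of the genes and carry no test.

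**Figure D1:**
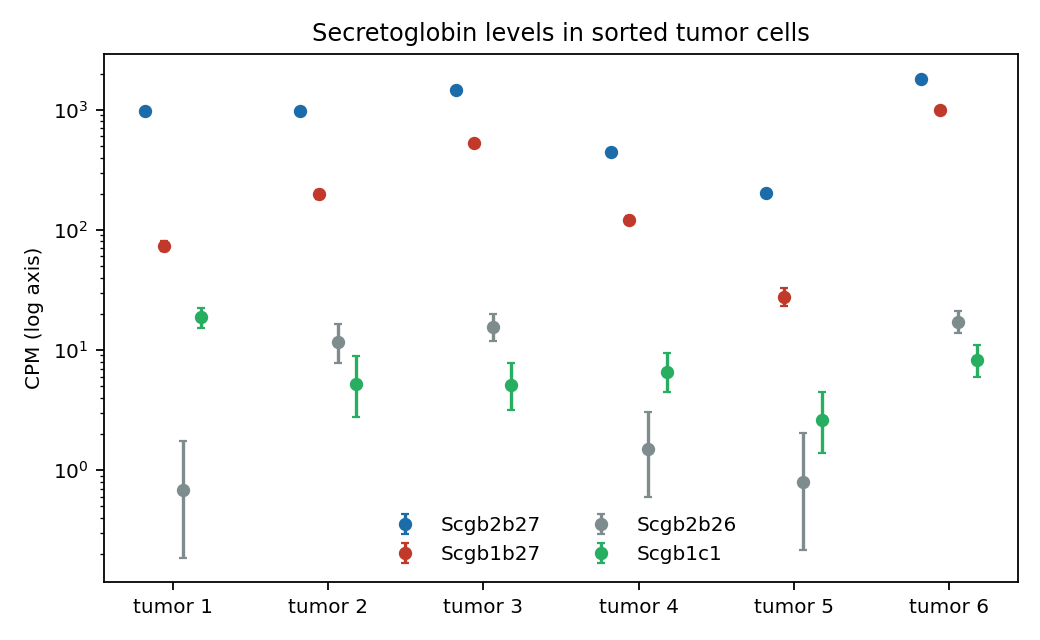
CPM on a log axis of the 4 secretoglobins with over 3 counts in every tumor, by tumor, with points for the values and bars for exact 95% Poisson intervals. Scgb2b27 is above Scgb1b27 in all 6 tumors, and both are highest in tumor 6 and lowest in tumor 5.

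The remaining 4 genes were near or at 0. Scgb1b2, an alpha subunit gene, had 0 counts in all 6 tumors. Scgb2b2, its beta-gamma neighbour, had 1 count in tumors 1 and 4 and 0 elsewhere. Scgb1a1 had 2 counts in tumor 1 and 0 elsewhere. Scgb2a2 had 1 count in tumors 4, 5 and 6 and 0 in the others. At these depths a level under the floor of 0.509 to 1.20 CPM could not be told from absence, and no fold change is given for these genes.

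The expressed pair stood near the end of its cluster. Of 64 androgen-binding protein genes there, 31 alpha and 33 beta-gamma genes of which 29 are annotated as protein coding and 35 as pseudogenes, 56 had 0 counts in all tumors, 5 had 1 to 3 counts at most in a tumor and 3 had more. Over all tumors the cluster took 35626 counts, of which Scgb2b27 held 74.4%, Scgb1b27 25.0% and all others together 0.587%. The third gene over the floor was Scgb2b26, a neighbouring beta-gamma gene at chr7:33943002-33945040. It had 4, 29, 64, 7, 4 and 88 counts in tumors 1 to 6, or 0.679, 11.6, 15.5, 1.49, 0.799 and 17.2 CPM. Tumors 2, 3 and 6 were high and tumors 1, 4 and 5 low, and intervals did not overlap between these sets.

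**Figure D2:**
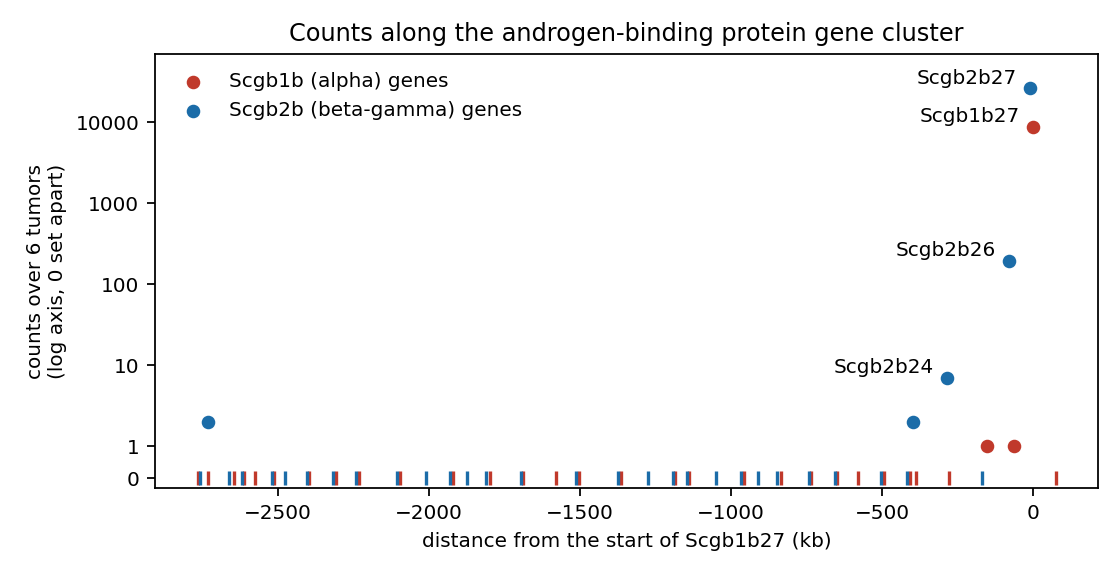
Summed counts over the 6 tumors (log axis, genes at 0 drawn as ticks below) against the distance in kb of each cluster gene from the start of Scgb1b27. Scgb2b27, Scgb1b27 and Scgb2b26 lie close together near 1 end, and 56 of 64 genes are at 0.

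Genes of the cluster resemble each other, and the count files list 0 reads as not uniquely aligned, which does not show how reads with several possible places were treated. In the last 300 bases of the transcript, where 3' libraries collect their reads, none of the 50-base windows of Scgb1b27, Scgb2b26, Scgb1b2, Scgb2b2, Scgb1a1 or Scgb2a2 occurred in another transcript of the annotation. For Scgb2b27, 5.18% of windows were shared, with Scgb2b12, Scgb2b19 and Scgb2b23-ps. Of the 56 genes at 0, 12 shared no window, 9 shared every window and 35 shared some, by the transcript of each gene that shared least. Scgb2b7 was among the 12 only by a retained-intron transcript, and its protein coding transcript shared 82.5% of windows. A 0 in the genes with shared windows is uncertain. The transcripts of Scgb2b27 and Scgb2b26 were identical at 81.5% of 520 aligned bases. Counts of Scgb2b26 were 0.0690 to 1.19% of those of Scgb2b27, and this share differed by tumor. The mice are FVB/N and the reference is C57BL/6J, and the part of strain differences in placing reads was not tested.

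Within a tumor, Scgb2b27 had more counts than Scgb1b27 in 6 of 6 tumors. The ratio of their counts was 13.5, 4.90, 2.77, 3.68, 7.29 and 1.80 in tumors 1 to 6. It was lowest in the tumors with the most Scgb1b27 (tumors 6 and 3) and highest in the tumors with the least (tumors 1 and 5). Scgb1b27 is the denominator and the gene with the wider range, so this order follows in part from the arithmetic and is a description. Divided by union exon length, the ratio of Scgb2b27 to Scgb1b27 still lay over 1 in every tumor, between 1.15 and 8.62. Those lengths, 1571 bases for Scgb2b27 and 1005 for Scgb1b27, take in a retained-intron transcript of Scgb2b27 of 1560 bases. The first protein coding transcripts differ little in length, with 512 and 493 bases, and 3' counts need not scale with length. Together the pair made up 230 CPM in tumor 5 and 2792 CPM in tumor 6.

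**Figure D3:**
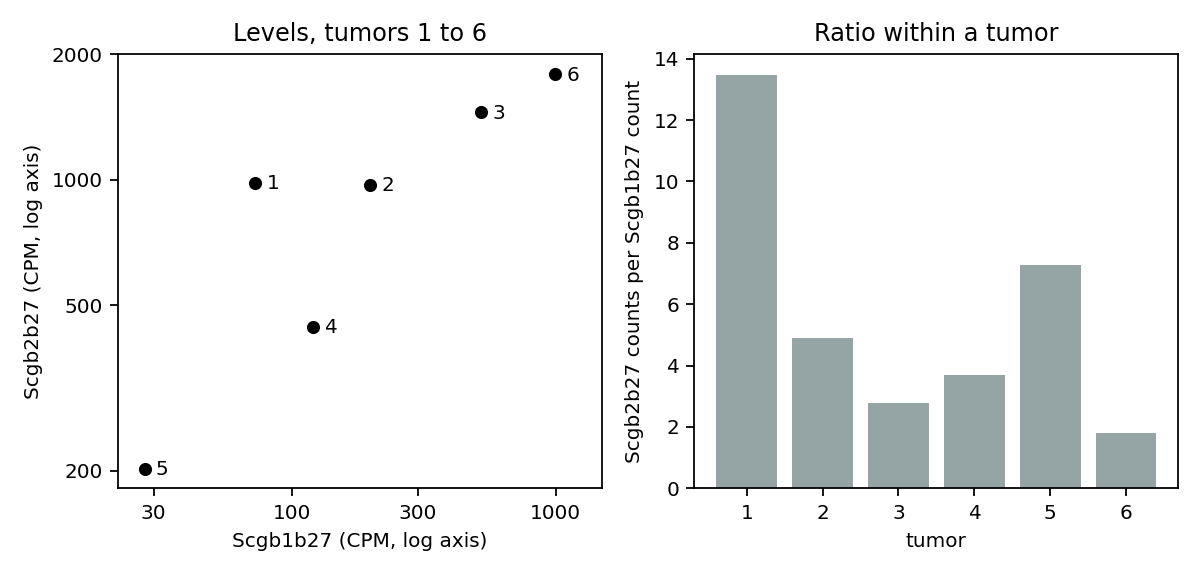
Left, Scgb2b27 against Scgb1b27 in CPM on log axes, with numbers for the tumors. Right, counts of Scgb2b27 per count of Scgb1b27 in each tumor, from 1.80 in tumor 6 to 13.5 in tumor 1.

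The likeness of other genes to Scgb1b27 was taken as the correlation of log2(TMM-scaled CPM + 1) over the 6 tumors, as a description without a p, because Scgb1b27 was chosen on its spread over these tumors. The points share scaling to their library. Scgb2b27 had a Pearson's r of 0.88 and a Spearman's rho of 0.94, at rank 19 of 8872 genes that averaged 10 CPM or more. Without tumor 1, r was 0.98, and without tumor 3 it was 0.87. Without the 2 tumors farthest from the median of Scgb1b27, tumors 5 and 6, r fell to 0.53, so the relation rested in large part on the extreme tumors. Scgb2b26 had an r of 0.91 and a rho of 0.94, and r was 0.92 without tumors 5 and 6.

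Scgb1c1 (ENSMUSG00000038801), a secretoglobin gene on chromosome 7 outside the cluster, had another order of tumors. It had 110, 13, 21, 31, 13 and 42 counts in tumors 1 to 6, or 18.7, 5.18, 5.09, 6.59, 2.60 and 8.20 CPM. Tumor 1 was the highest. The r of Scgb1c1 with Scgb1b27 was 0.22 over all 6 tumors and 0.81 without tumor 1. The other secretoglobins outside the cluster, Scgb3a1 with at most 3 counts and Scgb3a2 with 0 counts, were at or under the floor.

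Among all 8872 genes, 13 had an r of at least 0.9 with Scgb1b27 (0.147%) and 10 had an r of -0.9 or lower, and the median r was 0.05. The highest was Eif3f, a subunit of translation initiation factor 3, at 0.98, with levels of only 114 to 163 CPM. Pip, the prolactin-inducible protein secreted by salivary, lacrimal and apocrine glands, came next at 0.97. It had 13.9, 35.1, 42.7, 21.5, 3.39 and 153 CPM in tumors 1 to 6, and its order of tumors was that of Scgb1b27. Slc2a9, a urate transporter, and Plet1, an epithelial surface protein, followed at 0.95 and 0.94. Mfsd4a, Coq7 of ubiquinone synthesis, 1110002L01Rik, the ribosomal gene Rps14, 2310057J18Rik and the reductase Ndor1 completed the highest 10, at 0.91 to 0.93. Of these, 2310057J18Rik ran from 55.1 to 422 CPM and Rps14 from 1978 to 2763 CPM.

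At the other end, Ppa1, a pyrophosphatase, had an r of -0.99 over a range of 26.4 to 43.1 CPM. Msmo1, of sterol synthesis, Ero1l, an oxidase of the endoplasmic reticulum, Atp8a1, a phospholipid flippase, and Aacs, which activates acetoacetate, lay between -0.95 and -0.92. Ranking 8872 genes over 6 tumors gave high values of r in both directions, and no gene is called related to Scgb1b27 from them.

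Salivary glands are best known for this pair, and the study's methods took tumors of the upper mammary glands, which lie near them. Markers of salivary and other glands were therefore read in the same libraries. Of 13 salivary acinar genes, 9 exceeded 3 counts in a tumor, 5 did so in every tumor, and 3 were at 0 in every tumor. Car6, the secreted carbonic anhydrase of saliva, had the highest mean, with 51.8, 157, 526, 250, 62.9 and 525 CPM in tumors 1 to 6. Tumors 3 and 6 were high for Car6, as for the secretoglobin pair, and its r with Scgb1b27 was 0.91. Aqp5, a water channel of glandular epithelium, lay between 67.7 and 380 CPM and was highest in tumor 1. Dcpp1 and Dcpp2, secreted proteins of demilune and parotid cells, reached 17.8 and 10.3 CPM in tumor 6. Muc19 and Smgc, mucous products of the sublingual and neonatal submandibular glands, and Cst10 were at 0 counts in all 6 tumors, and Bpifa2, a parotid secretory protein outside the naming rule, had at most 4 counts. Summed, the acinar list ran from 150 CPM in tumor 5 to 872 CPM in tumor 6, with an r of 0.91 with Scgb1b27 over 6 tumors. The rho of the acinar list was 0.77, the same as that of the milk protein genes summed, whose r was 0.76. Single acinar genes differed, with an r of 0.97 for Pip, 0.68 for Dcpp1, 0.51 for Dcpp2 and 0.25 for Aqp5. Several genes of the acinar list are also made by mammary epithelium, and the part of this list in the levels of the pair was not tested.

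**Figure D4:**
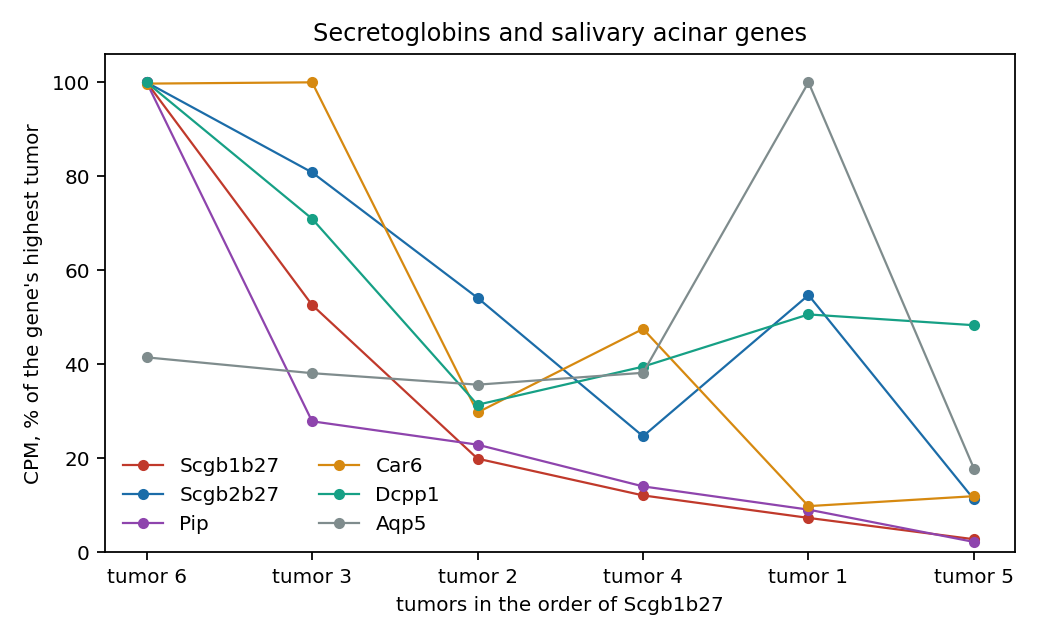
CPM of Scgb1b27, Scgb2b27 and 4 salivary acinar genes as a percentage of each gene's highest tumor, with tumors placed in the order of Scgb1b27. Pip falls in the same order, Car6 is high in tumors 6 and 3, and Aqp5 peaks in tumor 1.

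Markers of the other glands were mostly low. Of 7 salivary duct genes, Foxi1, a transcription factor of ionocytes, was the highest at 15.4 to 92.1 CPM, and Klk1b26, a kallikrein, reached 12.1 CPM. Klk1b22, another kallikrein of the granular ducts, had at most 2 counts. Of 5 lacrimal genes, 3 were at 0 in every tumor, including Lcn11, and Wfdc18, which mammary epithelium also makes, was at 4352 to 9593 CPM. Of 6 lung genes, Cyp2f2, a cytochrome of club cells, was the highest at 22.8 to 83.5 CPM, while Sftpa1, a surfactant protein, and Scgb3a2 were at 0.

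The 7 luminal genes summed to 3957 to 4874 CPM and the 7 milk protein genes to 6161 to 9746 CPM, of which Csn3, kappa-casein, was the highest at 4845 to 8396 CPM. Single milk genes ranged widely, Glycam1 from 1.20 to 58.1 CPM, Csn1s2a from 10.6 to 208 CPM and Csn2 from 18.2 to 172 CPM. Of the 7 milk protein genes, 6 were lowest in tumor 5, as the pair was, and Csn3 was lowest in tumor 2. The share of all genes that were lowest in tumor 5 is not given here. The pair was highest in tumor 6. By contrast, Csn1s1, Csn1s2a and Wap were highest in tumor 1, Csn2, Csn3 and Lalba in tumor 3 and Glycam1 in tumor 4. Their r with Scgb1b27 ran from -0.02 for Glycam1 to 0.71 for Csn3. The 7 basal genes summed to between 132 and 504 CPM, and the sum was highest in tumor 5, where the pair was lowest. That sum came mainly from the keratin genes Krt14, at 359 CPM in tumor 5, and Krt17, at 127 CPM. Their r with Scgb1b27 was -0.50 and -0.74. Krt5 and Trp63 were instead highest in tumor 4, with an r of 0.25 and 0.27. The other basal genes stayed under 10 CPM, so the sum does not speak for the basal genes as a set. Among 14 transcription factors known to act on secretoglobin or milk genes, Gata3, a luminal factor, was the highest at 802 to 1330 CPM with an r of 0.85. Foxa2 and Nkx2-1, which act on airway secretoglobins, were at 0 in all 6 tumors. Prlr, the prolactin receptor, ran from 150.0 to 255 CPM with an r of 0.89.

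The study asked what separates tumors that become hypoxic under the antibody, and its methods define a hypoxia score, the mean TPM of Vegfa, Slc2a1 and Car9 (an angiogenic factor, a glucose transporter and a carbonic anhydrase). The score was 48.5, 37.2, 51.4, 76.6, 94.4 and 47.3 TPM in tumors 1 to 6. Tumors 5 and 4 had the highest scores and the lowest levels of Scgb2b27, and tumor 5 had the lowest level of Scgb1b27. Per doubling of the score, log2 counts of Scgb2b27 changed by -2.25 (SE 0.63) and those of Scgb1b27 by -3.18 (SE 1.38). The slope of Scgb2b26 was -3.36 (SE 1.27) and that of Scgb1c1 was -1.17 (SE 0.78). None passed edgeR's quasi-likelihood test after Benjamini-Hochberg adjustment over 12088 genes (adjusted p = 0.954 for all 4 genes). Over all genes percent called was 0, with 0 of 12088 genes under an adjusted p of 0.05 and 512 under an unadjusted p of 0.05. The unadjusted p of the same test was 0.00555 for Scgb2b27, 0.0453 for Scgb1b27, 0.0258 for Scgb2b26 and 0.167 for Scgb1c1. Without tumor 5 this unadjusted p was 0.154 for Scgb2b27, 0.416 for Scgb1b27, 0.167 for Scgb2b26 and 0.824 for Scgb1c1. Scgb1b27 was chosen on its spread over these tumors, so its slope is a description and its p-values, adjusted or not, bear that limit. Scgb2b27 was listed as its relative and had an r of 0.88 with it over the same tumors, so its p-values bear that limit too. The same holds for the p-values of Scgb2b26, which had an r of 0.91 with Scgb1b27. DESeq2 called 18 genes, 0.149% of those tested, Scgb2b27 among them (adjusted p = 0.0120), and did not call Scgb1b27 (adjusted p = 0.791). Without tumor 5 the slopes were -1.54 for Scgb2b27 and -1.76 for Scgb1b27. Without tumor 1 they were -2.32 and -3.53, and without tumor 3 they were -2.17 and -3.06.

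**Figure D5:**
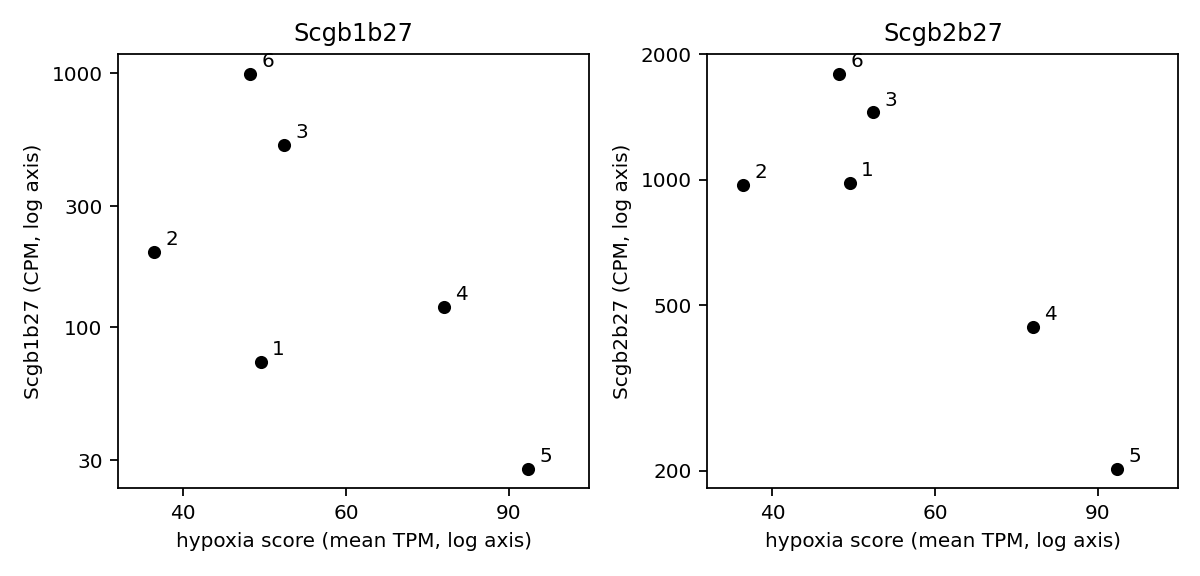
Scgb1b27 (left) and Scgb2b27 (right) in CPM against the 3-gene hypoxia score in mean TPM, log axes, with numbers for the tumors. Tumor 5 has the highest score and the lowest level of both genes, and tumors 1, 3 and 6 have scores of 47.3 to 51.4 but Scgb1b27 levels of 73.0 to 995 CPM.

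Mouse identifiers carried 2 prefixes, QAF for tumors 1, 4, 5 and 6 and QSD for tumors 2 and 3, whose meaning the labels do not give. The QAF tumors held both the highest and the lowest level of Scgb1b27 (27.8 to 995 CPM) and of Scgb2b27 (202 to 1796 CPM), and the QSD tumors lay within these ranges. With the prefix as a covariate the slopes on the score were -3.38 for Scgb1b27 and -2.38 for Scgb2b27. In bulk samples of sorted cells, a lower share of cells that make a secretoglobin and less RNA per cell cannot be told apart.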

How the data were processed

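EPCAM+ tumor cells of 6 treated mice were profiled with a 3' RNA-seq method, 1 library per tumor. After bbduk trimming, the authors placed reads on GRCm38 (mm10) using STAR 2.5 and deposited raw counts per gene from HTSeq, run on Bluebee. The library kit has molecular identifiers, and whether reads were collapsed by them, the strand setting and the annotation release are not given in the sources used here. Intervals and floors therefore cover counting error only.

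From the counts, CPM was computed over all genes. The lines that name no gene, with 16.1 to 41.4% of reads, were left out. Symbols came from GENCODE M21 (47224 of 47643 IDs matched), and TPM for the score used its union exon lengths. Counts were fitted in R 4.3.3 with edgeR 4.0.16 (quasi-likelihood, TMM, filterByExpr with a minimum count of 10, a total of 15 and a group size of 3, 12088 genes), on log2 of the score. DESeq2 1.42.0 was an alternative, and the code was tested on simulated data. Python 3.11.15, pandas 2.3.3 and Biopython 1.88 (local alignment) did the rest. Alternatives covered scaling, filters, the score, pseudocounts and leaving out each tumor.

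The genes and marker lists were chosen with earlier results of these data known. Genes named in the text are the 6 secretoglobins, other secretoglobins with at least 10 counts in a tumor, the score genes, the 10 highest and 5 lowest by r with Scgb1b27 among genes averaging 10 CPM or more, and of each list the highest, the lowest and those over 10 CPM in a tumor that bear on the pair. The remaining secretoglobins outside the cluster, the annotation's neighbours in the text and genes of the spread ranking were named after their values were seen. Tumors are separate mice, and p-values set a slope on the score against the variation that remains between them. A promoter motif and a part of the list genes are not reported here.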

Additional observations from a re-analysis of the deposited data

Results flagged for a closer look

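Of 20 measures compared over the 6 tumors, 4 had a highest or lowest tumor whose gap to the next, divided by the range, was over Dixon's critical value for 6 samples. Chance gives about 1 in 20 for independent, normally distributed values. These measures are untransformed levels and ratios, some contain others, and they were chosen with earlier results known. No excess over chance is read from their number. Scgb1c1 was at 18.7 CPM in tumor 1 (gap 0.65 of the range) against 2.60 to 8.20 CPM in the others. Pip was at 153 CPM in tumor 6 (0.74 of the range), the tumor with the most Scgb1b27. Aqp5 was at 380 CPM in tumor 1 (0.71 of the range). The erythroid list was at 864 CPM in tumor 3 (0.93 of the range), the tumor with the second level of the secretoglobin pair.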

How the results depend on the processing

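The number of genes called on the hypoxia score was 0 with edgeR, 18 with DESeq2, 10 without a filter on low counts and 0 to 2 when each tumor was left out, where only the fit without tumor 1 gave 2. Under DESeq2 the slope of Scgb2b27 was -2.24 and passed the threshold. Slopes of Scgb1b27 ran from -4.18 to -1.76 and those of Scgb2b27 from -2.88 to -1.54 over 12 alternatives each, all negative. Adjusted p of Scgb2b27 lay between 0.0120 and 1.00. The likeness of Scgb2b27 to Scgb1b27 was 0.78 to 0.98 when each tumor was left out and 0.53 without tumors 5 and 6. For Scgb1c1 it turned to -0.40 without tumor 5 and -0.86 without tumors 5 and 6, and was 0.81 without tumor 1. When each tumor was left out, the median level was 121 to 198 CPM for Scgb1b27, 973 to 983 CPM for Scgb2b27 and 1.49 to 11.6 CPM for Scgb2b26. The median ratio of Scgb2b27 to Scgb1b27 was 3.68 to 4.90 without 1 tumor, an alternative added after seeing the data. The causes were not tested. The 6 tumors and 3 counts as the floor limit what can be seen of the 4 genes near 0. No paired analysis was possible because there is 1 group of tumors.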
